A study of Mus musculus with 4 samples.

Results

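The genes described here are those of the neurotrophin system that 7 mouse symbols name: the ligands Bdnf and Ntf3, the receptors Ntrk2 and Ntrk3, the low-affinity receptor Ngfr, the sorting receptor Sort1, and Vgf, a secreted protein of the granin family whose gene is induced by neurotrophins. The rule that picks them is a list of symbols matched to Entrez identifiers. Counts were analysed for 6 of them among the 12700 genes of the count table, and no counts of Ntf3 were analysed here. All 6 had more than 100 reads in every library, so none was near the floor of detection.

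RNA was measured in the cerebral cortex (Cx) and in a pooled midbrain, diencephalon and hippocampus area (M) of C57BL/6 mice at 9 months of age, either Ids-ko (genotype Ids-/-) or wild type littermates. Ids encodes the lysosomal enzyme iduronate-2-sulfatase, which is lacking in Hunter syndrome, and the mice received no treatment. The 4 conditions were labelled CxH and MH for Ids-ko mice and CxWT and MWT for wild type mice, and the RNA of 7 mice was pooled for each. Every brain was divided into both areas, so CxH shares its mice with MH and CxWT with MWT. With 1 library per condition there was no replicate check, so each test below compares the reads of a pair of libraries and not the conditions.

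Neurotrophins are made as proforms that proteases cut to mature ligands. Mature BDNF binds the receptor tyrosine kinase TrkB, encoded by Ntrk2, and neurotrophin 3 binds TrkC, encoded by Ntrk3. Both receptors act through adaptor proteins on the Ras-MAPK, PI3K-Akt and phospholipase C pathways. Proforms bind instead to p75, encoded by Ngfr, together with sortilin, encoded by Sort1. In the brain, Bdnf is transcribed when neurons are active, and p75 in the adult is best known from cholinergic neurons of the basal forebrain.

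The reads on genes ranged from 16380080 to 23475080 per library, with a median of 567 to 738 reads per gene. Levels are given as RPM, reads per 1000000 aligned reads, with a 95% exact Clopper-Pearson interval, and ratios as log2 with a standard error from counting. Intervals and errors cover counting only and hold nothing of the variation between mice. A gene was called up- or down-regulated, as in the methods of the study, when its log2 ratio reached 0.7 in either direction and a Poisson likelihood ratio test on the reads passed at 0.05.

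The libraries did not all follow their labels. Ids stood at 135 RPM in the library labelled CxH and 155 in MWT, against 354 in CxWT and 368 in MH, so that in M the library labelled Ids-ko held more Ids reads. Which bases of Ids the knock-out allele lacks was not analysed here. Summed over 14 markers of cortical excitatory neurons, the level was 2190 RPM in CxH and 2014 in MH, against 357 in CxWT and 282 in MWT. Summed over 16 markers of midbrain and diencephalon it was 30.7 in CxH and 43.0 in MH, against 543 in CxWT and 475 in MWT. Of these 16 genes, 7 had at most 3 reads in CxH and 4 in MH, and none did in CxWT or MWT. They include En1, a midbrain transcription factor, with 1 read in CxH and 0 in MH, against 273 in CxWT and 126 in MWT. The 8 markers of striatal medium spiny neurons summed to 979 RPM in CxH and 826 in MH, against 363 in CxWT and 332 in MWT. The 7 of hippocampus summed to 142 and 149, against 127 and 94.5, with log2 ratios from -1.71 to 1.13 in CxH vs. CxWT. The methods of the study place striatum and hippocampus in M. The area markers thus set CxH and MH beside each other, whereas low Ids reads set CxH beside MWT. In CxH vs. CxWT and in MH vs. MWT a library rich in cortical and striatal markers was therefore set against one rich in midbrain markers. Genotype and area cannot be told apart in these pairs. For this reason all 6 pairs of libraries are given for the neurotrophin genes, and CxH, CxWT, MH and MWT below mean the libraries carrying these labels. Likewise, a ratio in Cx is CxH vs. CxWT and a ratio in M is MH vs. MWT, by label only. In these bulk samples fewer cells of a type cannot be told apart from less RNA per cell.

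**Figure D1:**
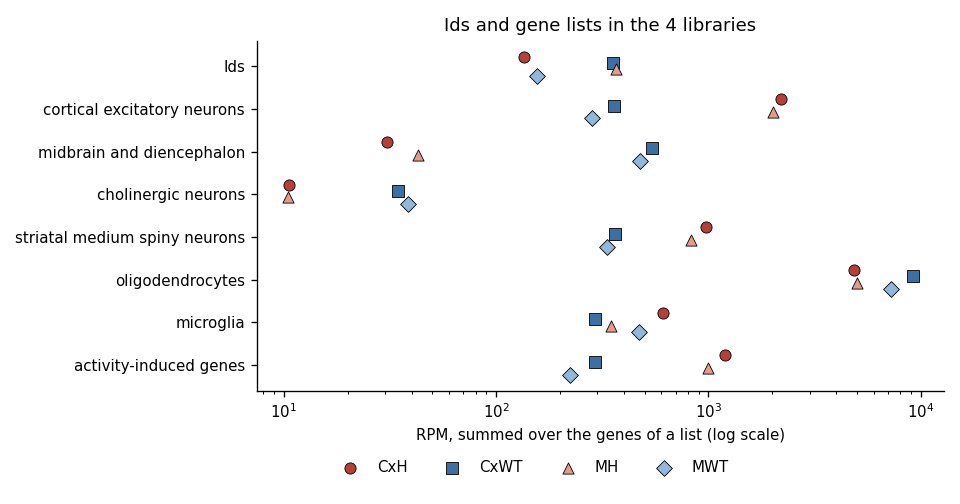
Summed RPM on a log axis of Ids and of 7 gene lists (vertical axis), with 1 point for each of the 4 libraries and no error bars. The 14 cortical markers lie far to the right in CxH (2190) and MH (2014) of the other libraries (357 and 282), whereas Ids is lowest in CxH (135) and MWT (155).

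Bdnf and the Trk receptor genes give rise to several transcripts. The counts are per gene, so the forms cannot be told apart in them. Bdnf lies on chromosome 2 from 109514857 to 109567204 on the plus strand (NCBIM37, the build of the counts), where GENCODE vM1 annotates 10 transcripts with 7 start sites. Ntrk2 (chromosome 13, 58907957 to 59235331, plus strand) encodes a full-length TrkB and a truncated form without the kinase domain. Their coding sequences are the same for the first 1394 bases, and the point where they part is shown because reads from both forms enter the same Ntrk2 count. The sequences are those of GENCODE vM1 transcripts on NCBIM37. Lower case marks the last shared bases and capitals the bases after the split.

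Ntrk2, full length: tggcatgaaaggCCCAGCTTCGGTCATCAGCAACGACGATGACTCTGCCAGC
Ntrk2, truncated: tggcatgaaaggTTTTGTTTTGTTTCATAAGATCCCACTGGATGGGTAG

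The full-length coding sequence has 821 codons and the truncated one 476. Of the latter, only the last 37 coding bases, stop codon included, are its own. Ntrk3 (chromosome 7, 85337248 to 85723294, minus strand) has the same arrangement, with 825 and 612 codons and 1585 shared coding bases. Its split is shown for the same reason.

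Ntrk3, full length: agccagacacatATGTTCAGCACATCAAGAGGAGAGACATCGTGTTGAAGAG
Ntrk3, truncated: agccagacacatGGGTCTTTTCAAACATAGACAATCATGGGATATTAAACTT

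Bdnf, the ligand of TrkB, was higher in the libraries labelled Ids-ko than in those labelled wild type. CxH held 557 reads and MH 583, against 284 in CxWT and 293 in MWT. The levels were 14.5 RPM (13.3 to 15.7) in CxH and 15.6 (14.4 to 16.9) in MH, against 8.45 (7.49 to 9.49) in CxWT and 10.1 (9.00 to 11.4) in MWT. The intervals of CxH and MH did not reach those of CxWT and MWT. Within each genotype label the intervals overlapped, MH with CxH and MWT with CxWT.

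The log2 ratio of Bdnf was 0.78 ± 0.11 in CxH vs. CxWT, which was called up-regulated. In MH vs. MWT it was 0.62 ± 0.10, below the ratio that the call requires. Across labels it was 0.89 ± 0.10 in MH vs. CxWT, called up-regulated, and 0.52 ± 0.10 in CxH vs. MWT, not called. Between libraries of the same genotype label it was -0.11 ± 0.085 for CxH vs. MH, whereas CxWT vs. MWT gave -0.26 ± 0.12. The Cx ratio exceeded the M ratio by 0.15 ± 0.15, a difference about as large as its counting error and not called. The 14 cortical markers moved the same way as Bdnf, with 13 called up-regulated in CxH vs. CxWT and 13 in MH vs. MWT, where 9.46% and 12.3% of all genes were. Of the 8 striatal markers, 7 were called up-regulated in each of these pairs. The part of these markers in the Bdnf ratio was not tested.

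Bdnf transcription starts from several promoters, and the cAMP response element, the site of the activity-regulated factor CREB, was searched for in the 250 bases before each start. RefSeq promoter windows (GRCm38.p6) were matched for 4 of the 7 genes, Bdnf (7 windows), Ntf3 (2), Ntrk2 (1) and Ngfr (1). The full palindrome TGACGTCA was found in none of these windows and in 1.55% of all 32851 windows. Its core TGACG, read on either strand and also part of the palindrome, occurred in 17.8% of all windows and, among those of these genes, once. The match lies 35 bases before a start of Bdnf at chr2:109692186-109692435, plus strand, and this window is shown with the core, here as its reverse complement, in capitals.

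Bdnf: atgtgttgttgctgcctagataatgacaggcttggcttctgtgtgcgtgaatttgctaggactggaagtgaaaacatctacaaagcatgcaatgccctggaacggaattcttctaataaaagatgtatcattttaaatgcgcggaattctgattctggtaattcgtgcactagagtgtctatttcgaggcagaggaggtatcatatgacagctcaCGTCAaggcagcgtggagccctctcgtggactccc

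The E-box CACGTG, the same on both strands, was found in 1 window of Ntf3 and in none of the other 3 genes, against 6.02% of all windows. The EGR motif GCGNGGGCG, on either strand, was in none of them and in 4.70% of all. These matches describe letters in the windows and do not show which start the Bdnf reads came from.

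Among the Trk receptors, Ntrk2 was abundant in every library. CxH had 21398 reads and MH 17545, CxWT 20544 and MWT 17647. In RPM this was 556 for CxH, 470 for MH, 611 for CxWT and 610 for MWT, each above the 99th percentile of all genes. CxWT and MWT had overlapping intervals and MH was the lowest. The log2 ratio was -0.14 ± 0.014 in CxH vs. CxWT and -0.38 ± 0.015 in MH vs. MWT. Both differences exceed the counting error, but neither reached the size needed for a call, and no other pair did. The ratio in CxWT vs. MWT, 0.0034 ± 0.015, had no direction beyond counting error and changed sign under each of the other scalings.

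Ntrk3 had far fewer reads than Ntrk2, 2150 in CxH and 2470 in MH, 1948 in CxWT and 1422 in MWT. Its level was 55.8 RPM for CxH, 66.1 for MH, 57.9 for CxWT and 49.1 for MWT. MH was the highest and MWT the lowest, and CxH and CxWT overlapped. The log2 ratio was -0.053 ± 0.045 in CxH vs. CxWT, where the sign turned with TMM and DESeq2 scaling, and 0.43 ± 0.048 in MH vs. MWT, and none of the 6 pairs was called. Within a library, where scaling plays no part, Ntrk3 had 141 reads per 1000 reads of Ntrk2 in MH, above CxH with 100.5, CxWT with 94.8 and MWT with 80.6. The balance of the Trk receptor genes was thus furthest toward Ntrk3 in MH.

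**Figure D2:**
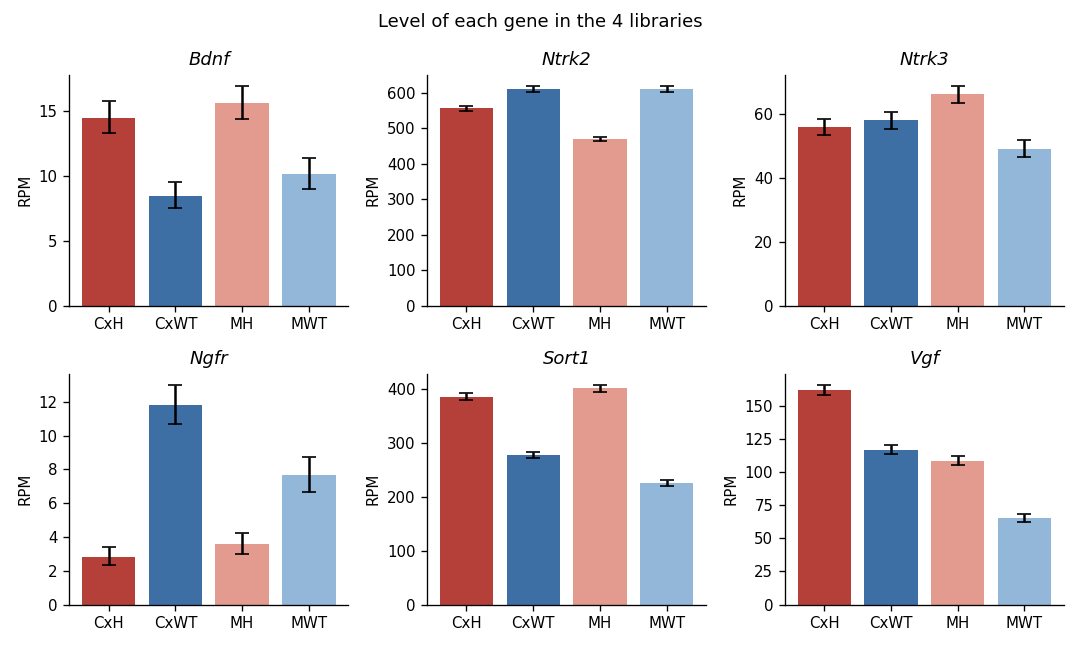
RPM of each of the 6 genes (vertical axes, each starting at 0) in the 4 libraries, with bars for the level and error bars for the 95% exact counting interval, 1 library per bar. Ngfr runs opposite to Bdnf, with 2.83 and 3.59 RPM in CxH and MH against 11.8 and 7.67 in CxWT and MWT, while the 4 bars of Ntrk2 lie between 470 and 611 RPM.

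Ngfr, the p75 receptor, gave the widest range of the 6 genes. It lies on chromosome 11 from 95430132 to 95449049 on the minus strand, with 1 annotated transcript. CxH held 109 reads and MH 134, against 397 in CxWT and 222 in MWT. The levels were 2.83 RPM (2.32 to 3.42) in CxH and 3.59 (3.00 to 4.25) in MH, against 11.8 (10.7 to 13.0) in CxWT and 7.67 (6.69 to 8.75) in MWT. CxH and MH were low and overlapped, and CxWT and MWT were high and did not.

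Ngfr was 4.17-fold lower in CxH than in CxWT, with a log2 ratio of -2.06 ± 0.16, called down-regulated. In MH it was 2.14-fold lower than in MWT, at -1.10 ± 0.16 and called as well. It was also called down-regulated in CxH vs. MWT, at -1.44 ± 0.17, and in MH vs. CxWT, at -1.72 ± 0.14. In the pairs that share a label it was not called, with -0.34 ± 0.19 for CxH vs. MH, whereas CxWT vs. MWT gave 0.62 ± 0.12. The 4 calls of Ngfr held under all 10 alternative settings tried. Several of these settings left the ratios unchanged, and a filter for genes with few reads could not remove a call of Ngfr.

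Measured against the other receptors of the same library, Ngfr showed the same order. Per 1000 reads of Ntrk2 it had 5.09 reads in CxH (4.18 to 6.15) and 7.64 in MH (6.40 to 9.05), against 19.3 in CxWT and 12.6 in MWT, whose intervals began at 17.5 and 10.97. Per 1000 reads of Sort1, the coreceptor for proneurotrophins, it had 7.35 in CxH and 8.94 in MH, against 42.7 in CxWT and 34.1 in MWT. The intervals of CxH and MH against those of CxWT and MWT did not overlap in either ratio.

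Markers of cholinergic neurons were lower in CxH and MH than in CxWT and MWT, as Ngfr was. The 4 that had counts, Chat, Slc5a7, Lhx8 and Isl1, summed to 10.6 RPM in CxH and 10.5 in MH, against 34.4 in CxWT and 38.6 in MWT. All 4 were called down-regulated in CxH vs. CxWT and in MH vs. MWT, with median log2 ratios of -1.59 and -1.76, where 11.5% and 12.7% of all genes were, and none was called in CxH vs. MH or CxWT vs. MWT, beside 3.5% and 7.54% of all genes. Their sum was lower in CxWT than in MWT, whereas Ngfr was higher in CxWT. The 16 midbrain and diencephalon markers fell further, with 15 called down-regulated in each of CxH vs. CxWT and MH vs. MWT, and medians of -5.20 and -4.30. The 7 oligodendrocyte markers were lower in CxH and MH too, at 4826 and 5015 RPM against 9155 and 7282. The 4 markers of meninges and Schwann cells, where p75 is also known, summed to between 101 and 106 RPM in all libraries, though among them Lum was called down-regulated in CxH vs. CxWT, at -0.93, and in CxH vs. MH and CxH vs. MWT, and Dcn in CxH vs. MWT, at -0.73. The part of these cell types in the Ngfr ratio was not tested.

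Sort1 was high in the libraries labelled Ids-ko. CxH held 14830 reads and MH 14985, against 9298 in CxWT and 6511 in MWT. In RPM this was 385 and 401 for CxH and MH, against 277 for CxWT and 225 for MWT, and no intervals overlapped. The log2 ratio of 0.83 ± 0.021 in MH vs. MWT was called up-regulated and that of 0.48 ± 0.019 in CxH vs. CxWT was not. Sort1 was also called up-regulated in CxH vs. MWT, at 0.78 ± 0.021, and not in MH vs. CxWT, at 0.54 ± 0.019. Between CxH and MH the difference was small, at -0.058 ± 0.017, and it was 0.30 ± 0.023 in CxWT vs. MWT. Exons of Sort1 (chromosome 3, 108087009 to 108164429, plus strand) share 329 bases with Gm12523 on the opposite strand, and whether the counting used strand is not given in the sources used here.

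Vgf (chromosome 5, 137506165 to 137509221, plus strand) encodes a product that is cut to several secreted peptides. It was the only gene of the 6 called between libraries of the same genotype label, in CxWT vs. MWT. These libraries held 543 and 475 RPM of midbrain and diencephalon markers, and 354 and 155 RPM of Ids, so the pair differs in area by label only. CxH held 6240 reads and CxWT 3936, and in M there were 4059 for MH and 1883 for MWT. In RPM this was 162 and 117 for the libraries labelled Cx, 109 for MH and 65.1 for MWT. No intervals overlapped, CxH was the highest and MWT the lowest. The log2 ratio was 0.47 ± 0.029 in CxH vs. CxWT, not called, and 0.74 ± 0.040 in MH vs. MWT, called up-regulated. It was 0.85 ± 0.040 in CxWT vs. MWT and 1.32 ± 0.038 in CxH vs. MWT, both called up-regulated. In CxH vs. MH it was 0.58 ± 0.029 and in MH vs. CxWT -0.11 ± 0.032. Per read of Bdnf, the libraries labelled Cx held 11.2 (CxH) and 13.9 (CxWT) reads of Vgf and those labelled M 6.96 (MH) and 6.43 (MWT).

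Ratios of Vgf, Bdnf, Sort1, Ngfr and Ntrk3 moved under a joint correction for GC content and transcript length. Across 10700 genes the log2 ratio rose with the GC content of the transcript in every pair, with Spearman correlations of 0.163 (MH vs. CxWT) to 0.686 (CxH vs. MWT), given as a description since genes of a library share its preparation. The longest coding transcript of Vgf has 64.8% GC, that of Bdnf 40.9%, and the others lie between 48.3% (Ntrk2) and 58.6% (Ngfr). After the correction, Vgf lost its 3 calls, with -0.20 in MH vs. MWT, 0.072 in CxWT vs. MWT and 0.15 in CxH vs. MWT, and its ratio in CxH vs. CxWT fell to 0.079. The corrected ratio of Bdnf in CxWT vs. MWT was -0.053, close to that of Vgf, so the reads of Vgf per read of Bdnf given above hold for uncorrected counts only. Bdnf moved up instead, to 1.18 in CxH vs. CxWT and 0.95 in MH vs. MWT, so that both pairs were called, and to 1.13 in CxH vs. MWT, also called. Sort1 lost its calls in MH vs. MWT, at 0.62, and in CxH vs. MWT, at 0.61, and Ngfr stayed called, at -2.33 in CxH vs. CxWT and -1.63 in MH vs. MWT, while its ratio in CxWT vs. MWT fell to 0.19. The ratio of Ntrk3 in MH vs. MWT fell to 0.22. For Ntrk2 the corrected ratio was -0.078 in CxH vs. CxWT and -0.51 in MH vs. MWT, neither called.

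**Figure D3:**
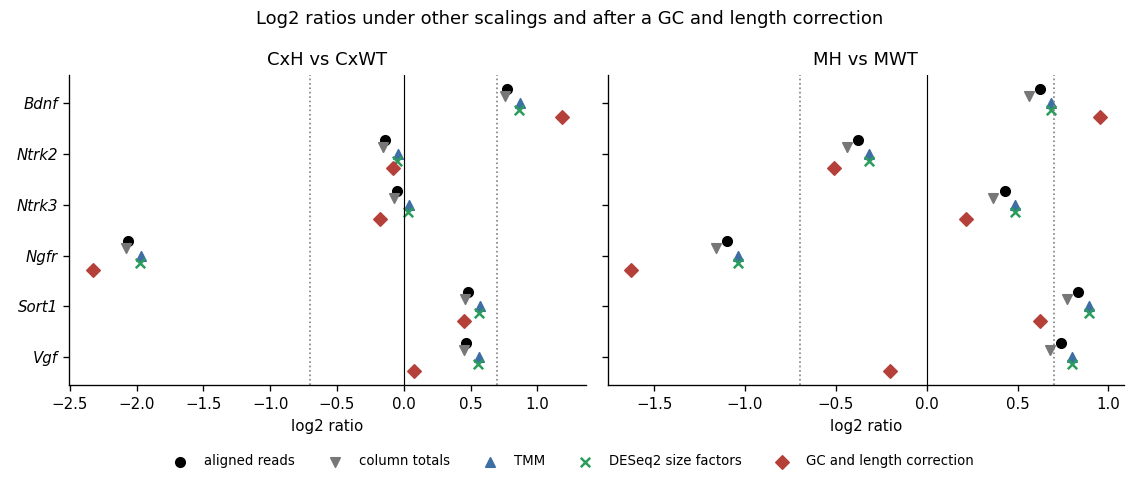
Log2 ratio (horizontal axis) of the 6 genes in CxH vs. CxWT and MH vs. MWT under 4 scalings and after the GC and length correction, with dotted lines at the threshold of 0.7 and no error bars. The corrected point of Vgf lies at 0.079 and -0.20, and all points of Ngfr lie beyond the lower line.

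Counted over the comparisons, 2 of the 6 genes were called in CxH vs. CxWT, Bdnf up and Ngfr down, where 20.9% of all genes were called (9.46% up and 11.5% down). In MH vs. MWT there were 3, Sort1 and Vgf up and Ngfr down, against 25.0% of all genes (12.3% up and 12.7% down). None was called in CxH vs. MH, where 3.5% of all genes were (2.43% up and 1.06% down), and Vgf alone, up, in CxWT vs. MWT, against 7.54% (5.43% up and 2.11% down). In CxH vs. MWT there were 3, Sort1 and Vgf up and Ngfr down, against 30.7% (15.6% up and 15.1% down). In MH vs. CxWT there were 2, Bdnf up and Ngfr down, against 15.3% (6.41% up and 8.89% down). With 6 genes, shares of this size do not set the group apart from the other genes of the table. The median log2 ratio of the 6 was 0.21 in CxH vs. CxWT and 0.53 in MH vs. MWT, beside -0.093 and -0.066 for all genes. These pairs share libraries and are not independent of each other.

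**Figure D4:**
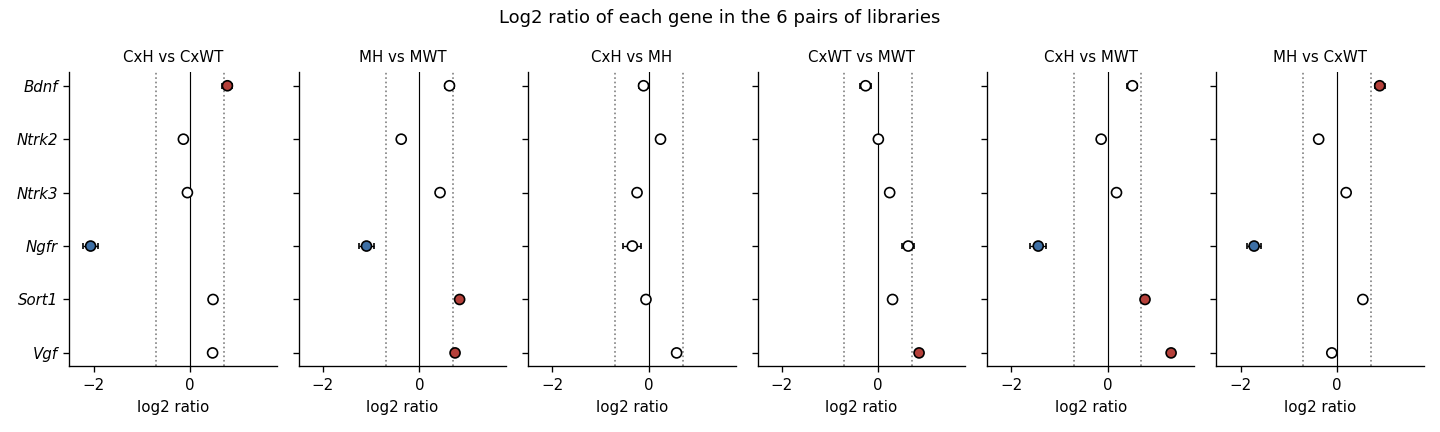
Log2 ratio (horizontal axes) of the 6 genes in each of the 6 pairs of libraries, first over second, with error bars for the counting standard error and dotted lines at the threshold of 0.7. Filled points were called; Ngfr is called down-regulated in the 4 pairs that set CxH or MH against CxWT or MWT, and no gene is called in CxH vs. MH.

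Compared between genes per kilobase of the longest coding transcript, Ntrk2 reached 65.1 RPM per kb in CxH, next to Vgf at 63.5 and Sort1 at 56.7. Ntrk3 followed at 16.9, Bdnf at 3.39 and Ngfr at 0.822. In CxWT, Ngfr at 3.43 RPM per kb stood above Bdnf at 1.98. In MWT the levels of these were 2.23 and 2.37 and could not be ordered within counting error. In MH, Sort1 had 59.0 and Ntrk2 55.0 RPM per kb, and Bdnf at 3.66 was above Ngfr at 1.04. Bdnf thus exceeded Ngfr in CxH and MH, and Ngfr exceeded Bdnf in CxWT. The values of Bdnf rest on a transcript of 4265 bases among 10 annotated and would be higher for a shorter form. Its place below Ngfr in CxWT therefore holds for this length only. The levels are not corrected for GC content, which is 40.9% for Bdnf and 58.6% for Ngfr. The values of Ntrk2 rest on the full-length transcript of 8541 bases and would be higher for the truncated form, whose annotated transcript has 7002, so Ntrk2, Vgf and Sort1 are not ranked against each other.

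Around these genes, 102 others of the pathway had counts, from 8 lists. Calls and ratios of these lists and of the marker lists are those before the GC and length correction. Of them 23 were called up-regulated and 3 down-regulated in CxH vs. CxWT, where 9.46% and 11.5% of all genes were. In MH vs. MWT the numbers were 27 and 2, beside 12.3% and 12.7%. Their median log2 ratios were 0.27 and 0.32. In CxH vs. MH 1 was called up-regulated, against 2.43%, whereas CxWT vs. MWT had 12, against 5.43%, with none down-regulated in either.

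The genes that neuronal activity induces, many of them also targets of Trk signaling, made up 12 of the 23 up-regulated calls in CxH vs. CxWT and 12 of the 27 in MH vs. MWT, where 9.46% and 12.3% of all genes were up-regulated. The list has 13 genes, with median log2 ratios of 2.17 and 2.31. Egr3, an immediate early transcription factor, had 54.5 RPM in CxH and 48.6 in MH, against 6.87 in CxWT and 2.66 in MWT. Its ratios were 2.99 ± 0.10 and 4.19 ± 0.17. Arc, which regulates AMPA receptor trafficking at synapses, had 385 RPM in CxH and 280 in MH, against 52.8 in CxWT and 35.5 in MWT, with 2.87 ± 0.036 and 2.98 ± 0.047. Egr1, Egr2 and Egr4 gave 2.17, 2.62 and 2.36 in Cx, and the M ratios were 2.46, 3.20 and 3.87. The genes not called, named after their values were seen, were Fos in Cx at 0.61 and Dusp1 in M at 0.41. None of the 13 was called in CxH vs. MH, beside 3.5% of all genes, and 3, Fosb, Egr3 and Egr4, were up-regulated in CxWT vs. MWT, beside 5.43%. Summed over the list the level was 1198 RPM in CxH and 997 in MH, against 291 in CxWT and 222 in MWT. This is the same division as that of the cortical and striatal markers, whose part in it was not tested.

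Among 14 transcription factors and cofactors that act on Bdnf or Vgf, 4 were called up-regulated in Cx and 5 in M, beside 9.46% and 12.3% of all genes, and none down-regulated, beside 11.5% and 12.7%. Mef2c, a factor of excitatory neurons, gave 2.03 ± 0.038 and 1.82 ± 0.038. Npas4, an activity-dependent factor that binds Bdnf promoters, gave 1.63 ± 0.099 and 1.12 ± 0.098. The CREB coactivator Crtc1 gave 1.14 ± 0.030 and 1.46 ± 0.039, and Mef2d 0.85 ± 0.044 and 1.35 ± 0.057. The CREB-binding protein gene Crebbp was the fifth in M, at 1.14 ± 0.069. Crebbp and Mef2d were also up-regulated in CxWT vs. MWT, at 0.74 and 0.71, where 5.43% of all genes were.

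Of 14 partners and effectors of p75, 4 were called up-regulated in each of Cx and M, beside 9.46% and 12.3% of all genes, and none down-regulated, beside 11.5% and 12.7%. Rtn4r, the Nogo receptor, which can form a complex with p75, had 59.3 RPM in CxH and 44.3 in MH, against 13.4 in CxWT and 7.53 in MWT, with log2 ratios of 2.14 ± 0.074 and 2.56 ± 0.10. Lingo1, its coreceptor, gave 1.34 ± 0.027 and 2.14 ± 0.037, and the related receptor Rtn4rl2 gave 2.92 ± 0.17 and 4.33 ± 0.31. In the same pairs Ngfr was called down-regulated. The fourth call was Tnfrsf19 in Cx, at 0.91, and Rtn4rl1 in M, at 0.87. Lingo1, Rtn4r and Rtn4rl2 were also up-regulated in CxWT vs. MWT, at 0.94, 0.83 and 1.57, where 5.43% of all genes were. Ngfr was not called in that pair, at 0.62 before and 0.19 after the GC and length correction.

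Below the Trk receptors, the calls are read beside the 20.9% (CxH vs. CxWT) and 25.0% (MH vs. MWT) of all genes called. Of 20 adaptors and scaffolds, 2 were down-regulated in Cx, Sos1 and Sh2b2, and in M 1 was down-regulated, Sos1, and 2 up-regulated, Sh2b3 and Rapgef1. Rapgef1 and Frs3 were up-regulated in CxWT vs. MWT, at 0.72 and 0.80, where 5.43% of all genes were. Sos1, the exchange factor that activates Ras, had log2 ratios of -0.89 ± 0.051 and -0.80 ± 0.050. Of 22 kinases and GTPases of the Ras-MAPK and PI3K-Akt pathways, Akt2 was up-regulated in CxH vs. CxWT and MH vs. MWT, at 1.44 ± 0.040 and 0.96 ± 0.047, and Hras in Cx, at 0.79.

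In the 3 lists that follow, the calls stand beside 9.46% up and 11.5% down of all genes in Cx and 12.3% and 12.7% in M. Among 10 granins and genes of peptide processing, to which Vgf is related by function, Scg2 (secretogranin II) had 152 RPM in CxH and 174 in MH, against 387 in CxWT and 423 in MWT, with log2 ratios of -1.34 ± 0.023 and -1.28 ± 0.022, both called down-regulated. Chgb was up-regulated in Cx, at 0.81, and Pcsk1n, which encodes an inhibitor of a prohormone convertase, in M, at 1.29. Pcsk1n was also up-regulated in CxWT vs. MWT, at 2.01, where 5.43% of all genes were. It was the pathway gene called in CxH vs. MH, at 0.79, where 2.43% of all genes were up-regulated. Of 4 relatives of sortilin, Sorl1 was up-regulated in M, at 0.80, and none in Cx. Of the 5 proteases and protease regulators of proneurotrophins with counts, Furin was up-regulated in M, at 0.94, and none in Cx. Furin was up-regulated in CxWT vs. MWT as well, at 0.80.

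**Figure D5:**
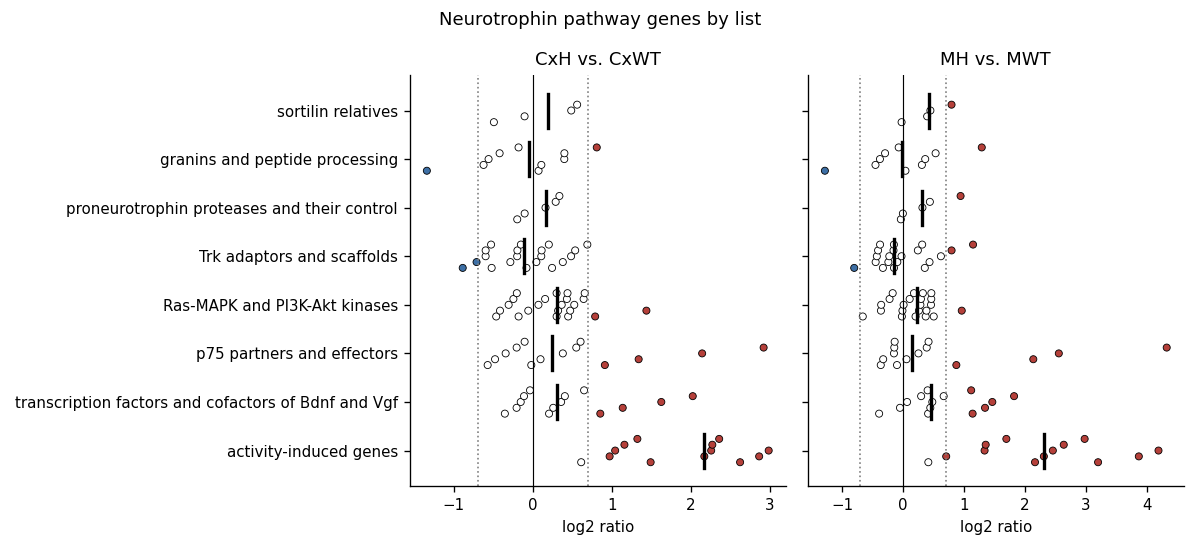
Log2 ratio (horizontal axes) of the 102 pathway genes in CxH vs. CxWT and MH vs. MWT, 1 point per gene in 8 lists (vertical axis), with a black bar for the median of each list and dotted lines at the threshold of 0.7; filled points were called. The medians of the activity-induced genes lie at 2.17 and 2.31, and those of the Trk adaptors at -0.12 and -0.15.

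Other genes had nearly the same profile over the 4 libraries as some of the 6. Likeness was measured as the root mean square distance of centred log2 RPM over these 4 points among the 11010 genes that reached 100 reads in all of them, and is given as a description. The nearest to Bdnf were Coch (0.015), Mal2 (0.027) and Cdk17 (0.029), and those nearest to Sort1 were Dgkd (0.014), Slc16a7 (0.015) and Gm20605 (0.022). For Ntrk2 they were Slc39a11, Timm22 and Snu13, at 0.012 to 0.013, and for Ntrk3 Med23, Rgs7bp and Hdhd5, at 0.013 to 0.019. Vgf had Jund (0.047), Nbl1 (0.050) and Rtn2 (0.052). Ngfr had the most distant neighbours, Vangl1 (0.10), Kank4 (0.13) and Ramp3 (0.14).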

How the data were processed

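RNA of 7 mice was pooled per library. The authors sequenced on a SOLiD instrument, aligned reads to mm9 with at most 2 mismatches and deposited raw counts per gene, from reads with a unique gene, keeping genes whose length was covered by more than 50%. The annotation they used is not given in the sources used here.

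RPM are counts over the aligned reads of each library, and a count of 0 was set to 1 for ratios. All 12700 genes were tested in each of 6 pairs of libraries by a Poisson likelihood ratio test, and p-values concern the reads only. The difference between areas was tested as a difference of log2 ratios over its counting error. The members and lists were chosen with earlier results of these data known. Pathway genes were named if called in both Ids-ko vs. wt comparisons with at least 100 reads in 1 library, at most 5 per list, and others where 5 or fewer were called. The list of further neurotrophin and receptor genes is not reported here. Symbols were known for 12690 genes, and GC content and length, from the longest coding transcript in GENCODE vM1, for 12222. The correction was a cubic fit (degree 3) of the log2 ratio on both. The other alternatives were column totals, TMM and DESeq2 size factors, at least 100 reads, a log2 threshold of 1, adjusted p-values, 0.5 added to every count, an exact test in edgeR with an assumed variation of 0.1 or 0.2, and a quasi-likelihood fit of genotype with area as a block. The steps were tested on simulated data. DESeq2 1.42.0 and edgeR 4.0.16 in R 4.3.3, and Python 3.11.15 with scipy 1.17.1, numpy 2.4.6 and pandas 2.3.3, were used.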

Additional observations from a re-analysis of the deposited data

Results flagged for a closer look

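Ngfr was the gene of the 6 whose ratio differed between the areas by more than the threshold. Its log2 ratio was -2.06 in CxH vs. CxWT and -1.10 in MH vs. MWT, a difference of -0.96 ± 0.22 by counting error on the reads of the 4 libraries, where 13.2% of all genes passed the same test and threshold. Under alternatives chosen after seeing the data, the difference was -0.92 to -0.94 with the other scalings. It was -0.70 after the GC and length correction, just below the threshold of 0.7 in size. An assumed variation of 0.1 between pools widened the standard error to 0.36, with which the difference still passed at 0.05, and a variation of 0.2 widened it to 0.62, with which it did not. With Ids highest in MH and CxWT, the labels of genotype and area cannot be told apart in this difference.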

How the results depend on the processing

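Of 360 log2 ratios of the 6 genes under 10 alternatives, 333 kept their direction and their side of the threshold. Another 15 lost the call with the sign kept, 2 gained it and 10 changed sign. Among those 10, Vgf in MH vs. MWT lost its call as well. The read filter, the log2 threshold of 1, adjusted p-values and the exact tests left every ratio as it was. No sign could turn under these settings. The read filter could remove none of the 6 genes, and adding to every count barely moved the ratios. The 333 thus include many ratios that the setting could not change. The sign changed for Ntrk3 in CxH vs. CxWT, to 0.040 with TMM and 0.034 with DESeq2 size factors, and for Vgf in MH vs. CxWT, to 0.00088 with DESeq2 size factors. Ntrk2 in CxWT vs. MWT turned to -0.088 with column totals, -0.046 with TMM, -0.045 with DESeq2 size factors and -0.064 with the GC and length correction. That correction also turned Vgf in MH vs. MWT to -0.20, Bdnf in CxH vs. MH to 0.18 and Ntrk3 in CxH vs. MWT to -0.11. These ratios were small, except that of Vgf, and the cause was not tested. With a log2 threshold of 1, the members called numbered 1 in CxH vs. CxWT, 1 in MH vs. MWT, 0 in CxWT vs. MWT and 1 in MH vs. CxWT, and the gene left was Ngfr. In CxH vs. MWT 2 stayed called with that threshold, Ngfr and Vgf. An assumed variation of 0.2 left 1 in CxH vs. CxWT, Ngfr, and took the call from Vgf in MH vs. MWT and from Sort1 in CxH vs. MWT, and the GC and length correction left 0 in CxWT vs. MWT. Column totals took the call from Vgf in MH vs. MWT (0.68) and from Sort1 in CxH vs. MWT (0.67).

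Over all genes, the calls went from 2658 to 1401 in CxH vs. CxWT, from 3170 to 1642 in MH vs. MWT, from 444 to 143 in CxH vs. MH, from 958 to 295 in CxWT vs. MWT and from 1943 to 1064 in MH vs. CxWT with the threshold of 1, and from 3895 to 1890 in CxH vs. MWT with the GC and length correction. Up- and down-regulated genes numbered 1201 and 1457 in CxH vs. CxWT, and 1447 and 1135 with TMM. In MH vs. MWT they numbered 1556 and 1614, 1774 and 1386 with TMM, and 1377 and 1896 with column totals. They were 814 and 1129 in MH vs. CxWT, and 1013 and 855 with TMM. With column totals they went from 309 and 135 to 257 and 183 in CxH vs. MH, from 690 and 268 to 480 and 390 in CxWT vs. MWT, and from 1980 and 1915 to 1609 and 2504 in CxH vs. MWT. The median of all genes shifted by over 0.1 in CxH vs. MWT with column totals (-0.11) and in MH vs. CxWT with TMM and DESeq2 size factors (0.11 each).

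Within a comparison, no paired analysis was possible because each side has 1 library, and no library was left out for the same reason. Over both areas, genotype was fitted with area as a block in edgeR's quasi-likelihood test, with 1 residual degree of freedom, an alternative chosen after seeing the data that takes the labels as given. The log2 ratios were -1.58 for Ngfr (adjusted p = 0.01), just under 0.70 for Bdnf (0.038), 0.66 for Sort1 (0.035), 0.60 for Vgf (0.043), -0.26 for Ntrk2 (0.3) and 0.19 for Ntrk3 (0.52), the last with the sign opposite to that in CxH vs. CxWT. The adjusted p was under 0.05 for 2369 of 12700 genes, and with the log2 threshold only Ngfr of the 6 was called. CxH and MH came from the same mice, as did CxWT and MWT, so these p-values hold nothing of the variation between mice. The fitted contrast also sets the libraries rich in cortical markers against the others, so genotype and area cannot be told apart in it. Depth limits Ngfr most, with 109 reads in CxH.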
